A study of Mus musculus with 12 samples.

Results

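Fibroblasts of the aortic adventitia, the outer coat of the vessel, were compared between the ascending and the descending thoracic aorta without TGFβ, on the basis of 6 of the 12 bulk RNA libraries of the series. The 6 libraries were taken by their labels: 3 cultures of ascending adventitial fibroblasts and 3 of descending adventitial fibroblasts, each given the solute control (0 ng/mL TGFβ) for 48 h. All 6 carry the labels C57Bl/6 strain, WT genotype, 14 weeks of age and batch 1, and the cells were primary outgrowths from minced adventitia rather than a cell line. The tissue was the aortic root with the ascending aorta at one site and the descending thoracic aorta down to the renal arteries at the other. The labels do not say which cultures came from the same mice, so p-values measure the spread between these cultures. The labels give 1 passage, while the text of the study gives another age and more passages in places. The other 6 libraries, ascending and descending fibroblasts kept with 10 ng/mL TGFβ for 48 h, served only to ask whether the difference between sites was of the same size there.

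The wall of the aorta is built from cells of several embryonic sources. Cells of the root and ascending segment come largely from the second heart field and the cardiac neural crest, and cells of the descending segment from paraxial (somite) mesoderm. Hox genes encode transcription factors that mark position along the body axis, with higher-numbered paralogues used further towards the tail, whereas Gata4, Hand2 and Tbx20 encode factors of the developing heart and outflow tract. Adventitial fibroblasts make the collagen, elastic and proteoglycan matrix of the vessel wall. The comparison asks which genes differed in expression between the sites in culture. No uncultured tissue was among the libraries, so it cannot tell which differences were already present in the vessel.

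The deposited counts summed to between 16250126 and 23892943 per control library, so that 3 counts, taken as the floor of detection, stood for 0.119 to 0.203 normalized CPM (counts divided by the library size scaled with edgeR's TMM factors over all 12 libraries). Descending control 3 stood apart: 13031 genes had a count there against 20153 to 20931 in the other 5 control libraries, and 11.02% of its counts were mitochondrial against 0.803% to 1.03%. Its correlation with descending control 1 and 2 over genes was 0.873 and 0.875, against 0.993 between those 2. Each comparison was therefore fitted with it (6 libraries) and without it (5 libraries), and counts of calls are given for both. A gene's difference is from 6 libraries unless 5 are named beside it. The 9 fibroblast markers listed summed to 13844 to 16617 CPM over the control libraries. The most abundant fibrillar chain, Col1a1, stood at 5396, 5631 and 5447 CPM in the ascending and 6104, 5907 and 6710 in the descending libraries. Of the 9, 2 were higher in ascending and 5 in descending fibroblasts with 5 libraries, and 1 and 1 with 6. Endothelial markers summed to 23.5 to 28.1 CPM in every control library, and T or B cell and epithelial markers to at most 0.249 CPM. Macrophage markers summed to 388 CPM in ascending control 2 against 28.3 to 62.3 in the other 5, with Lyz2 at 291 CPM there and between 17.5 and 42.3 elsewhere. Of 8 macrophage markers tested, 5 were higher in ascending and 0 in descending fibroblasts with 5 libraries (median log2 difference 1.75), and 0 passed with 6. Of the list, 3 were higher in every ascending than in every descending library, as were 18.5% of all genes tested. The part of these markers in the site differences was not tested. Adipocyte markers were higher in the descending libraries (22.8 to 30.0 CPM summed) than in the ascending ones (0.951 to 4.99), with Ucp1 at 0 throughout.

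With all 6 libraries, 374 of 14090 genes tested (2.65%) passed an adjusted p of 0.05 in edgeR's quasi-likelihood test. Of these, 167 (1.19%) were higher in ascending and 207 (1.47%) in descending fibroblasts. Without descending control 3, 4631 of 14644 genes (31.6%) passed, 2402 (16.4%) higher in ascending and 2229 (15.2%) in descending fibroblasts. The 2 fits differed in their spread: the biological coefficient of variation was 38.7% with 6 libraries and 5.79% with 5, and the median standard error of the log2 difference was 0.31 and 0.10. Leaving out any other single control library left 33 to 108 calls. All 374 genes of the 6-library fit were also called in the 5-library fit in the same direction, where they made up 8.08% of the calls. Among the 5-library calls the median absolute log2 difference was 0.46. More than 2-fold differences were found for 299 genes with 6 libraries and 1202 with 5, and more than 10-fold differences for 66 and 151. The normalized values of all 3 ascending libraries lay on one side of all 3 descending ones, descending control 3 included, for 4937 of the 14090 genes (35.0%), and for 1834 of the 4522 genes called with 5 libraries and tested with 6.

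**Figure D1:**
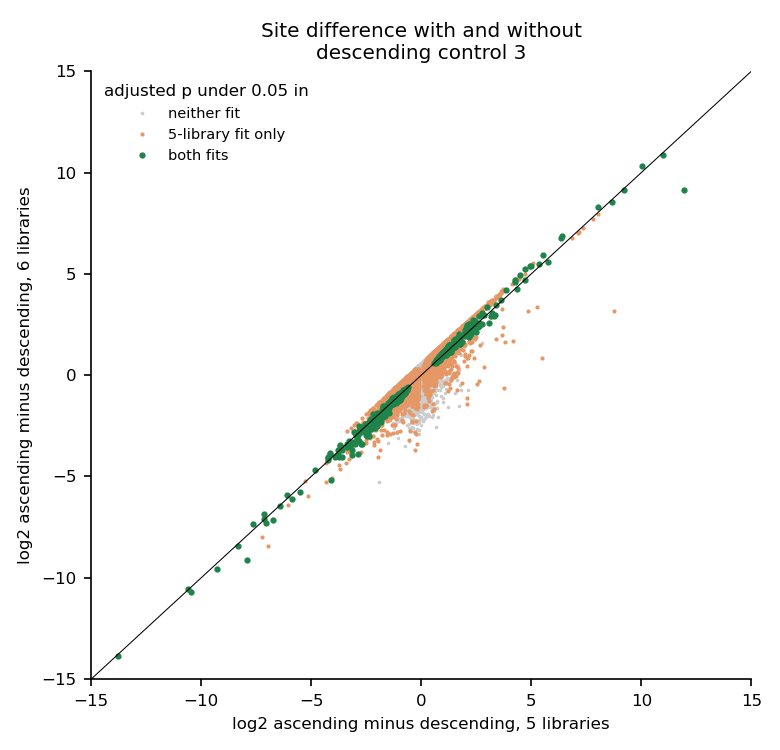
Each point is a gene, placed by its log2 difference between ascending and descending control fibroblasts in the 5-library fit (x axis) and the 6-library fit (y axis); the line marks equal values and colours give the fits in which it passed an adjusted p of 0.05. The 374 genes called in both fits lie near the line, while genes called in the 5-library fit only crowd around 0 and include some well below the line.

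The genes higher in ascending fibroblasts with the smallest adjusted p were led by a growth factor and a matrix protein. Gdf6 (chr4:9844372-9862345, plus strand, GRCm38), a ligand of the bone morphogenetic protein (BMP) family, stood at 115, 118 and 128 CPM in the ascending and 3.36, 2.59 and 2.10 CPM in the descending libraries. Eln (chr5:134702593-134747323, minus strand), which encodes elastin, the core of the elastic fibre, stood at 1541, 1591 and 1464 CPM against 137, 117 and 99.4. Neither gene's groups overlapped, and descending control 3 was the lowest library for both. The log2 difference of Gdf6 was 5.48 ± 0.21 (SE) with 6 libraries (adjusted p = 0.00139) and 5.35 ± 0.10 with 5 (adjusted p = 3.11e-13). That of Eln was 3.71 ± 0.15 (adjusted p = 0.00139) and 3.62 ± 0.06 (adjusted p = 8.82e-14). Among the other 13 genes of the 15 with the smallest adjusted p in this direction, Pcolce2, an enhancer of procollagen C-terminal processing, stood at 126, 131 and 128 CPM against 25.6, 21.7 and 22.9. Sod3, the extracellular superoxide dismutase, stood at 174, 180 and 162 CPM against 33.6, 38.1 and 42.8. Serpinb9b, of the intracellular serpins, stood at 805, 730 and 789 CPM against 282, 279 and 252, and Slc38a1, a glutamine transporter, at 51.3, 51.8 and 50.8 against 12.6, 9.65 and 11.4. For these 4 genes too the descending values, descending control 3 included, lay below every ascending value. Tubb4a (a beta tubulin, log2 difference 4.69 ± 0.19 with 6 libraries), Ppl (periplakin, 5.59 ± 0.28), Gda (guanine deaminase, 2.23 ± 0.11), Pgm5 (an adhesion-associated relative of phosphoglucomutase, 3.48 ± 0.22), Klhl13 (1.97 ± 0.11), Adamtsl3 (a matrix-associated ADAMTS-like protein, 2.29 ± 0.13) and Nkain2 (2.56 ± 0.15) completed the group together with Gata4 and Hand2. Over the 15 genes adjusted p ran from 0.00139 to 0.00351.

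Cd34, which encodes a sialomucin of progenitor cells and adventitial fibroblasts, was likewise higher in ascending fibroblasts. It stood at 484, 491 and 487 CPM in the ascending and at 49.0, 49.1 and 90.9 CPM in the descending libraries. Descending control 3 lay between the other 2 descending libraries and the ascending ones. The log2 difference was 2.95 ± 0.30 with 6 libraries (adjusted p = 0.00909) and 3.34 ± 0.04 with 5 (adjusted p = 2.23e-14). Col14a1, a fibril-associated collagen, stood at 147, 154 and 153 CPM against 8.49, 7.41 and 2.98, a log2 difference of 4.59 ± 0.40 with 6 libraries (adjusted p = 0.00613).

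The genes higher in descending fibroblasts with the smallest adjusted p held 5 Hox genes beside matrix and signalling genes. H19 (chr7:142575529-142578143, minus strand), an imprinted long non-coding RNA, stood at 31.2, 33.8 and 31.5 CPM in the descending and 3.07, 3.39 and 2.77 CPM in the ascending libraries. Daam2, a formin of the Wnt planar polarity branch, stood at 57.9, 59.1 and 71.0 CPM against 3.55, 4.39 and 3.55. Both differed by over 10-fold in the fit, with a log2 difference (ascending minus descending) of -3.38 ± 0.16 for H19 (adjusted p = 0.00155) and -4.03 ± 0.18 for Daam2 (adjusted p = 0.00155). Thbs1, the matricellular thrombospondin 1, stood at 10945, 11137 and 10990 CPM in the descending and 3435, 3756 and 3623 in the ascending libraries, a log2 difference of -1.61 ± 0.09 (adjusted p = 0.00192). Comp, the cartilage oligomeric matrix protein and itself a thrombospondin, stood at 168, 174 and 107 CPM against 12.8, 13.8 and 12.5, a log2 difference of -3.51 ± 0.22 (adjusted p = 0.00244). F3, tissue factor, stood at 85.3, 78.2 and 104 CPM against 9.73, 11.7 and 10.2. In each of these 5 genes the lowest descending library stood above the highest ascending one. Megf10 (a scavenger receptor with EGF repeats, -2.29 ± 0.14), Olfml3 (a secreted olfactomedin-like protein, -2.04 ± 0.11), Id4 (an inhibitor of basic helix-loop-helix factors, -3.51 ± 0.25), Hsd17b7 (an enzyme of cholesterol synthesis, -1.41 ± 0.10) and C1s1 (a complement protease, -1.69 ± 0.12) also belonged to the 15. C1s1 shared 35.1% of its 50-base sequences with other genes, most often C1s2, so its counts could be split with that copy.

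**Figure D2:**
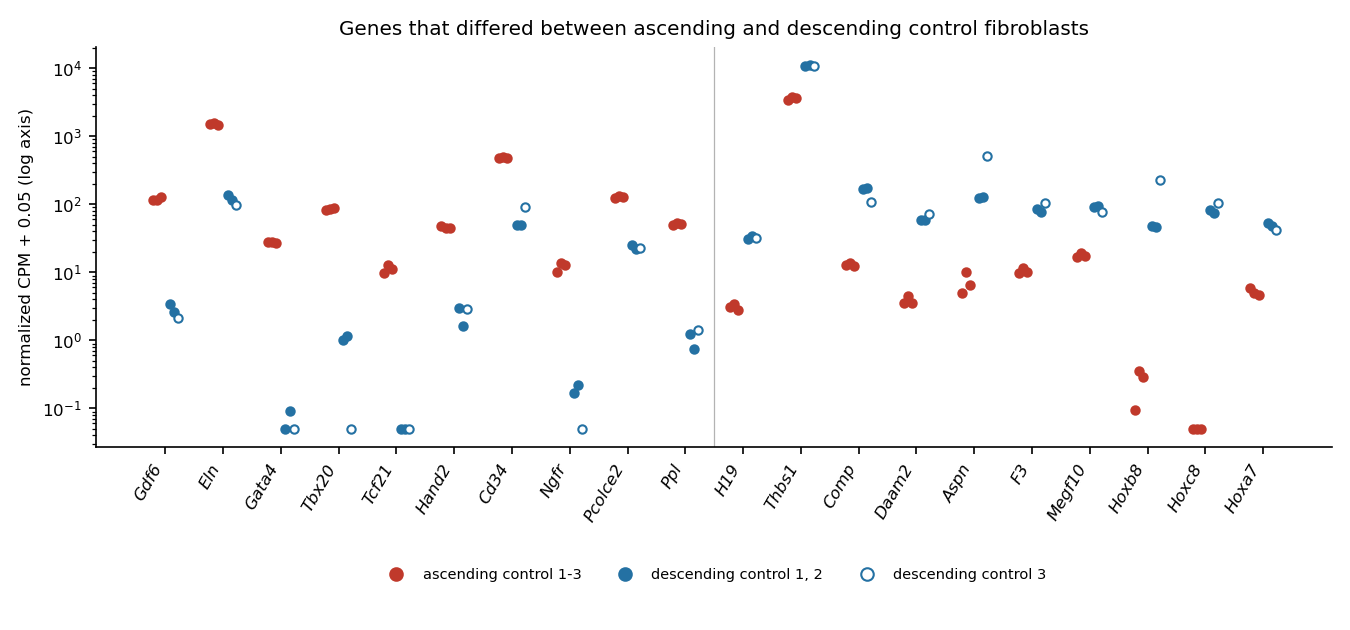
Normalized CPM plus 0.05 (log axis) of 20 genes in each control library, with ascending libraries in red, descending control 1 and 2 in filled blue and descending control 3 as an open circle; the left 10 genes were higher in ascending and the right 10 in descending fibroblasts. The colours do not overlap for any of the 20 genes, and the open circle stands away from the filled blue ones for Aspn, Hoxb8, Cd34 and Tbx20.

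More transcription factors of the heart and outflow tract passed as higher in ascending than in descending fibroblasts. Of the 30 listed, 23 were tested: with 6 libraries 6 were higher in ascending, 1 in descending and 16 did not pass, with a median log2 difference of 0.73 against 0.04 over all genes, of which 1.19% and 1.47% passed in the 2 directions. With 5 libraries 13 were higher in ascending, 5 in descending and 5 did not pass (median 0.86 against -0.0011), beside 16.4% and 15.2% of all genes. These shares of all genes are the background for every list. Gata4, a zinc finger factor of the heart, stood at 27.7, 27.6 and 26.7 CPM in the ascending libraries and had 1 count in the descending libraries together. The ratio of Gata4 was 1731, with a 95% counting interval from 311 to 68356. Tbx20, a T-box factor of the heart, stood at 82.9, 85.0 and 87.7 CPM against 0.948, 1.12 and 0. The log2 difference of Tbx20 was 6.85 ± 0.78 with 6 libraries (adjusted p = 0.0123) and 6.39 ± 0.10 with 5 (adjusted p = 8.82e-14). Hand2, a basic helix-loop-helix factor of the outflow tract that shared 15.8% of its 50-base sequences with other genes, stood at 48.4, 45.6 and 44.4 CPM against 2.92, 1.59 and 2.84, a log2 difference of 4.24 ± 0.28 with 6 libraries (adjusted p = 0.00296). All 3 factors were separated between sites in every library. Tcf21, a factor of epicardial and fibroblast lineages, stood at 9.64, 12.6 and 11.03 CPM in the ascending libraries and had no count in any descending one, which makes it at least 78.0-fold higher when 3 counts per library are set as the floor. Isl1, the marker of the second heart field, stood at 8.04, 6.13 and 6.22 CPM against 0, 0.0431 and 0. The ratio of Isl1 was 430, with a counting interval from 77.2 to 16998. Gata6 stood at 103, 95.8 and 98.8 CPM against 57.0, 53.7 and 68.8, and passed with 5 libraries (0.86 ± 0.06, adjusted p = 3.92e-08) but not with 6 (0.73 ± 0.14, adjusted p = 0.0701). Six2 was higher in ascending fibroblasts in both fits (1.72 ± 0.27 and 1.70 ± 0.20). Tbx3 went the other way, at 7.59, 6.94 and 8.79 CPM in the descending and 2.29, 2.44 and 2.92 CPM in the ascending libraries, and Tbx1 was higher in descending fibroblasts with 5 libraries (-2.998 ± 0.27, adjusted p = 1.05e-06) with an adjusted p of 0.0618 with 6. The epicardial or mesothelial marker Upk3b was also higher in ascending fibroblasts (34.8, 29.0 and 37.0 CPM against 0.988, 1.59 and 0), while Wt1 and Krt8 of the same marker list had no count in the control libraries. Of the 4 markers of that list tested with 5 libraries, 3 were higher in ascending and 1 in descending fibroblasts (median 4.25), against 1 of 3 higher in ascending with 6. The 7 listed summed to 33.5 to 44.0 CPM in the ascending and 6.76 to 13.1 CPM in the descending libraries, and their part in these differences was not tested. Tnnt2, a troponin of heart muscle, stood at 6.18, 5.79 and 7.73 CPM against 0.158, 0.905 and 1.01, and passed with 5 libraries but not with 6 (adjusted p = 0.0854).

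Most tested Hox genes were higher in descending fibroblasts, and in the Hoxa and Hoxb clusters those of paralogue groups 5 and above differed more than those below. Of 39 Hox genes 22 were tested, and 14 were higher in descending fibroblasts with 6 libraries and 17 with 5, beside 1.47% and 15.2% of all genes, while 1 was higher in ascending fibroblasts with 5 (median log2 difference -3.35 with 6 and -3.50 with 5). Summed over the list, Hox genes stood at 107 to 112 CPM in the ascending and 583 to 952 CPM in the descending libraries, the highest being descending control 3. The Hoxc cluster was all but silent in ascending fibroblasts: its 5 tested genes summed to 0.0865, 0 and 0.146 CPM there and to 156, 148 and 206 CPM in descending fibroblasts. Hoxc8 stood at 81.6, 75.3 and 104 CPM in the descending libraries and had no count in any ascending one, at least 617-fold higher at a floor of 3 counts per library. Hoxc6 stood at 54.0, 52.7 and 80.3 CPM against 2 ascending counts in all, a ratio of 1988 with a counting interval from 550 to 16413. Hoxc4 and Hoxc9 likewise had no ascending count. The bound was at least 61.7-fold for Hoxc4 and 31.2-fold for Hoxc9.

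In the Hoxb cluster the log2 difference with 5 libraries grew from -0.35 ± 0.19 for Hoxb2 (adjusted p = 0.201) to -8.34 ± 0.18 for Hoxb9 (adjusted p = 7.58e-13). Hoxb3 (-1.04 ± 0.14), Hoxb4 (-0.54 ± 0.08), Hoxb5 (-2.70 ± 0.14), Hoxb6 (-5.53 ± 0.14), Hoxb7 (-6.76 ± 0.24) and Hoxb8 (-7.91 ± 0.18) lay between them with 5 libraries, with Hoxb4 nearer to 0 than Hoxb3. Hoxb9 stood at 68.4, 58.9 and 76.8 CPM in the descending and 0.173, 0.0499 and 0.340 CPM in the ascending libraries. Hoxb8 stood at 48.8, 46.0 and 229 CPM against 0.0432, 0.299 and 0.243, so that descending control 3 read it far above the other 2 descending libraries. The difference of Hoxb8 with all 6 libraries was -9.12 ± 1.12 (adjusted p = 0.0163). Hoxb5os, an antisense RNA of the cluster, followed with 14.6, 12.4 and 8.86 CPM against 0.216, 0.299 and 0.0486. The Hoxa cluster had the same step: Hoxa2 (-0.32 ± 0.14) and Hoxa4 (-0.17 ± 0.15) did not pass with 5 libraries and Hoxa3 did with a small difference (-0.18 ± 0.06, adjusted p = 0.0474), whereas Hoxa5 (-2.11 ± 0.06), Hoxa6 (-3.71 ± 0.19), Hoxa7 (-3.29 ± 0.09) and Hoxa9 (-7.05 ± 0.44) did. With 6 libraries Hoxa5, Hoxa6, Hoxa7, Hoxa9 and Hoxb5 to Hoxb9 passed, while Hoxa2, Hoxa3, Hoxa4, Hoxb2, Hoxb3 and Hoxb4 did not (adjusted p from 0.203 to 0.936), Hoxb2 standing at 0.22 ± 1.23. Hoxa7 stood at 53.8, 48.8 and 42.5 CPM against 5.88, 4.89 and 4.62. The summed level of tested Hoxa and Hoxb paralogues 1 to 4 was 47.0 to 49.0 and 29.4 to 35.0 CPM in the ascending, and 51.8 to 56.3 and 29.4 to 53.2 CPM in the descending libraries. That of paralogues 5 to 13 was 22.5 to 23.9 and 4.37 to 5.19 CPM against 143 to 217 and 192 to 443 CPM. Hoxd8 was the 1 member higher in ascending fibroblasts with 5 libraries, at about 1 CPM (0.994, 1.05 and 1.02 against 0.0395, 0.388 and 0), and it did not pass with 6 (adjusted p = 0.398). Neighbouring Hox transcripts overlap: Hoxb3 shared 51.4% of its 50-base sequences with other genes, Hoxb2 25.9%, Hoxa3 24.3% and Hoxa7 18.7%, so their single values are less certain than the cluster's pattern.

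**Figure D3:**
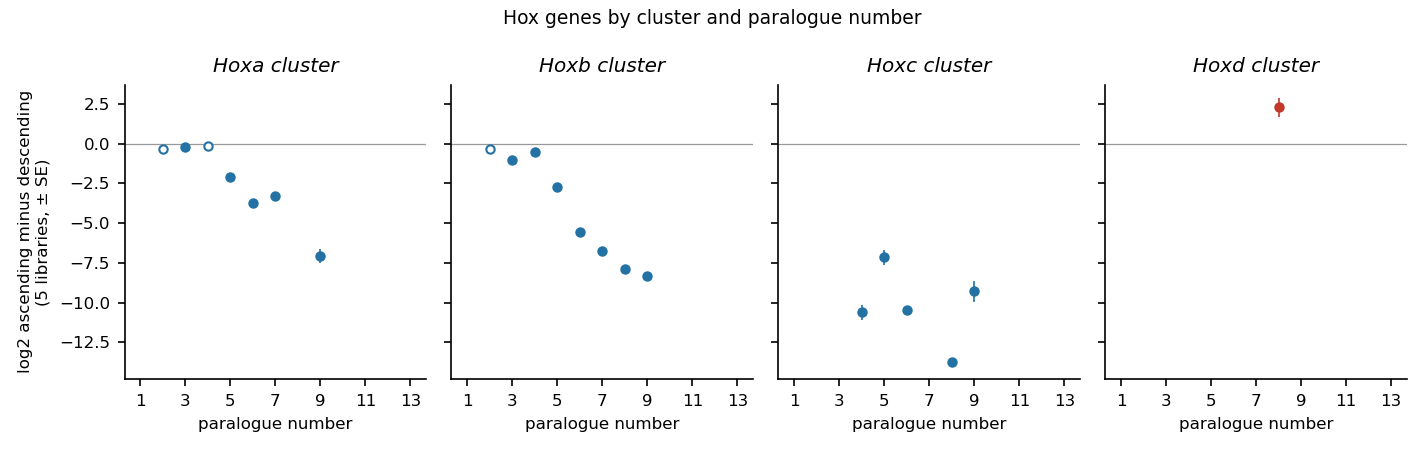
Log2 difference between ascending and descending control fibroblasts without descending control 3 (y axis, ± SE) for the Hox genes described by paralogue number (x axis) in the 4 clusters; filled points passed an adjusted p of 0.05, and blue points lie below 0. Values step down from paralogue 5 in Hoxa and Hoxb and reach their lowest in Hoxc, where the fitted size depends on the prior count because ascending libraries had 0 to 3 counts.

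Promoter windows of 6 of the genes described above are shown, 3 higher in ascending and 3 in descending fibroblasts. Windows of Cd34 and Hoxa7 were also taken, held no match to the motifs below and are not shown. Each runs from 250 bases before to 50 bases after the transcription start (RefSeq, GRCm38.p6), read 5′ to 3′ on the gene's strand. Capitals mark exact matches, on either strand, to any of 9 short motifs: TATAAA of the basal promoter, AGATAA of zinc finger factors such as Gata4, TAATTA of homeobox factors, AGGTGTGA of T-box factors, TTTATGGC of posterior Hox factors, CCACACCC of Kruppel-like factors, TGANTCA of AP-1, TGTCTG of SMAD factors and ACGTGC of hypoxia-inducible factors.
Tcf21 (chr10:22820094-22820393, minus strand): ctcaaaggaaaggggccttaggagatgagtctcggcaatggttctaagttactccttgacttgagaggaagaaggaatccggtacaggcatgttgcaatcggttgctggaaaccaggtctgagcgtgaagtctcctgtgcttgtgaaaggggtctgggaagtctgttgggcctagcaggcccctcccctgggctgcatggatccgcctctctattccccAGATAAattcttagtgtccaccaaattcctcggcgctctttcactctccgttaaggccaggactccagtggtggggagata
Tbx20 (chr9:24774254-24774553, minus strand): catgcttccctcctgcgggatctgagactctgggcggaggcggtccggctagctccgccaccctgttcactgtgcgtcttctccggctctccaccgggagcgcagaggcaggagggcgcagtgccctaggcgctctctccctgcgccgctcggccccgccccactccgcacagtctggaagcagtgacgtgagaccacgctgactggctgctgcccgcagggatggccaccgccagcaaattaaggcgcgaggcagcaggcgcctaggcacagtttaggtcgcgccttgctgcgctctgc
Hand2 (chr8:57320733-57321032, plus strand): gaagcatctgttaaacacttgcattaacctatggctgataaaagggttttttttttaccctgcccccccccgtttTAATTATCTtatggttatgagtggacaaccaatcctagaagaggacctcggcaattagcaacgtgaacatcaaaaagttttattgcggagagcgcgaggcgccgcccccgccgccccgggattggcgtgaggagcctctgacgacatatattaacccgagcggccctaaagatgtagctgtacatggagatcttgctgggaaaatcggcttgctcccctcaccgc
Hoxb8 (chr11:96281655-96281954, plus strand): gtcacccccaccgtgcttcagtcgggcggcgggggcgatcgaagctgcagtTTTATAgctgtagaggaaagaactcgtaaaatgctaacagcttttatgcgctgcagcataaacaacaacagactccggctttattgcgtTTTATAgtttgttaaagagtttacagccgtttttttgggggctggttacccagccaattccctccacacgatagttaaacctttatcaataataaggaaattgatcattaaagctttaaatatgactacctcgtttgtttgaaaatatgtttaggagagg
Daam2 (chr17:49564288-49564587, minus strand): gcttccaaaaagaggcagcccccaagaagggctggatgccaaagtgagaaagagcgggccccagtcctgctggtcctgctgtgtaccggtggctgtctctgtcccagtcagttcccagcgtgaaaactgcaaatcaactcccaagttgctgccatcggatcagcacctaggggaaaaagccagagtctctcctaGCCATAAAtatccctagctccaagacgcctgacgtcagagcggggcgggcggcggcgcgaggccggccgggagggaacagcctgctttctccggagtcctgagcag
F3 (chr3:121723287-121723586, plus strand): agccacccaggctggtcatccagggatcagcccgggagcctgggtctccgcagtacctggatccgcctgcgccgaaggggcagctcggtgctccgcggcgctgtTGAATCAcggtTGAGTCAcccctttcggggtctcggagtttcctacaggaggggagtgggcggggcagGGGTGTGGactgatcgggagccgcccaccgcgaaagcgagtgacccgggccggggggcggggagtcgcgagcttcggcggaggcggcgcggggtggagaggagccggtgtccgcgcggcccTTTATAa
The Tcf21 window held AGATAA 31 bases before the start, which 11.2% of all 32851 windows and 6.1% of the 10661 windows of genes tested with 5 libraries hold, and the Tbx20 window held no match. The Hand2 window held TAATTA (5.29% of all windows and 2.4% of those of tested genes) overlapping AGATAA on the opposite strand. The Hoxb8 window held TATAAA on the opposite strand at 2 places, a motif in 13.6% of all windows and 7.05% of those of tested genes. The Daam2 window held TTTATGGC on the opposite strand 56 bases before the start, a motif in 0.654% and 0.413% of windows, and the F3 window held TGANTCA at 2 places (7.81% and 5.07%), CCACACCC (3.56% and 3.66%) and TATAAA. Over the genes called with 5 libraries that had a window, TGANTCA stood in 5.94% of the 1818 windows of genes higher in ascending and 4.24% of the 1649 of genes higher in descending fibroblasts, beside 5.07% of the 10661 windows of genes tested. CCACACCC stood in 4.29% and 3.88% beside 3.66%, TGTCTG in 16% and 14.5% beside 15.8%, and ACGTGC in 7.59% and 6.61% beside 8.06%. AGATAA stood in 6.16% and 5.94% beside 6.1%, TAATTA in 2.2% and 1.88% beside 2.4%, AGGTGTGA in 0.605% and 0.728% beside 0.769%, and TTTATGGC in 0.44% and 0.243% beside 0.413%, in 8 and 4 windows. Over the genes called with 6 libraries, 125 windows of genes higher in ascending and 141 of genes higher in descending fibroblasts, the order of TGTCTG was the other way round (14.4% and 19.1%), and ACGTGC stood in 10.4% and 2.84%. TATAAA stood in 11.2% and 17.0% of them, beside 7.92% and 8.07% with 5 libraries and 7.05% of genes tested. The median GC content of these windows was 62.0% and 57.3%, beside 61.0% over genes tested. These shares are descriptions without a test.

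Transcription factors of the neural crest and of the somites were split between the sites. With 5 libraries 9 of 21 tested neural crest factors were higher in ascending and 6 in descending fibroblasts (16.4% and 15.2% of all genes), with 1 and 1 of 20 past the threshold with 6 (1.19% and 1.47%). Sox10, the defining factor of crest-derived glia, stood at 2.12, 2.49 and 2.04 CPM in ascending libraries with no count in the descending ones, at least 15.6-fold higher. Foxd3 (0.822, 1.15 and 1.75 CPM against no count) and Tfap2a (2.77, 2.44 and 2.43 CPM against 0.277, 0.345 and 0) were higher in ascending fibroblasts with 5 libraries only. Ngfr, the low-affinity neurotrophin receptor, which Schwann cells also carry, stood at 10.2, 13.5 and 12.97 CPM against 0.119, 0.172 and 0. Schwann or glial cell markers summed to 23.3 to 29.5 CPM in the ascending and 15.1 to 24.3 CPM in the descending libraries. Of 5 tested, 4 were higher in ascending and 0 in descending fibroblasts with 5 libraries (median 2.49), and 1 with 6. Levels of 4 of them did not overlap between the sites in the 6 libraries, ascending being higher, as for 18.5% of all genes tested. The part of these markers in the differences was not tested. Prrx1, a homeobox factor of mesenchyme, stood at 589, 597 and 1052 CPM in the descending and 178, 191 and 194 CPM in the ascending libraries, a log2 difference of -1.99 ± 0.27 with 6 libraries (adjusted p = 0.0227). Snai2, a zinc finger factor of migrating mesenchyme, stood at 92.6, 95.1 and 433 CPM against 21.6, 23.7 and 24.1. Descending control 3 was again the highest library for both, and Snai2 passed with 5 libraries (-1.998 ± 0.06) but not with 6 (adjusted p = 0.101). Of 18 somite and trunk mesoderm factors 4 were higher in ascending and 6 in descending fibroblasts with 5 libraries, and 1 and 3 with 6. Tbx15 (-1.61 ± 0.15 with 6 libraries), Nr2f2 (-1.35 ± 0.22) and the sclerotome factor Pax1 (-4.05 ± 0.48, at 6.56, 6.16 and 4.06 CPM against 0.303, 0.499 and 0.194) were higher in descending fibroblasts, and Osr1 (0.93 ± 0.13) in ascending ones.

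Elastic fibre and microfibril genes differed in both directions. Of 24 tested, 1 was higher in ascending (Eln) and 3 in descending fibroblasts with 6 libraries, and 7 and 8 with 5, with a median log2 difference near 0 (0.06 and -0.03). Over all genes 1.19% and 1.47% passed with 6 libraries and 16.4% and 15.2% with 5. Fbn1, the main fibrillin of the microfibril, stood at 1548, 1918 and 1728 CPM against 1869, 1816 and 1603, so that its groups overlapped (adjusted p = 0.937 with 6 libraries and 0.461 with 5). Fbln5, which helps elastin assemble, likewise did not pass with 5 libraries (-0.04 ± 0.03, adjusted p = 0.477). Fbn2, a fibrillin of developing tissue, stood at 4.94, 5.21 and 6.56 CPM in the descending and 0.476, 0.748 and 0.194 CPM in the ascending libraries, a log2 difference of -3.54 ± 0.55 (adjusted p = 0.0331). The microfibril proteins Mfap2 (-1.96 ± 0.21) and Emilin2 (-1.10 ± 0.17) were also higher in descending fibroblasts. The latent TGFβ binding proteins went apart with 5 libraries: Ltbp4 was higher in ascending (0.93 ± 0.04) and Ltbp2 in descending fibroblasts (-1.68 ± 0.04), with adjusted p of 0.108 and 0.0861 with 6. Lox, which crosslinks elastin and collagen, was lower in ascending fibroblasts with 5 libraries by 0.19 ± 0.03 on the log2 scale (adjusted p = 0.000117) and did not pass with 6 (-0.48 ± 0.23, adjusted p = 0.456).

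Collagen chains differed in both directions, Col4a4, Col4a5 and Col4a6 being higher in ascending and Col6a1, Col6a2 and Col6a3 in descending fibroblasts. Of 34 tested, 7 were higher in ascending and 5 in descending fibroblasts with 6 libraries, and 11 and 19 with 5 (median -0.20 and -0.23), beside 1.19% and 1.47% of all genes with 6 and 16.4% and 15.2% with 5. The type IV chains of basement membrane Col4a4 (1.92 ± 0.15 with 6 libraries), Col4a5 (1.14 ± 0.15) and Col4a6 (3.39 ± 0.49) were higher in ascending fibroblasts. Col4a3 did not pass with 6 libraries (adjusted p = 0.309) and differed by 2.49 ± 0.12 with 5. The abundant type IV chains Col4a1 and Col4a2 did not pass with 6 libraries (adjusted p = 0.871 and 0.569) and were higher in descending fibroblasts with 5 (-0.24 ± 0.03 and -0.38 ± 0.04). Col4a6 stood at 55.3, 59.0 and 56.9 CPM against 7.31, 7.11 and 1.89. Col3a1, a fibrillar chain, stood at 4714, 5133 and 4731 CPM against 2002, 1960 and 1233, a log2 difference of 1.497 ± 0.19 (adjusted p = 0.0192), and Col5a2 at 3443, 3234 and 3341 CPM against 1965, 1860 and 2069 (0.77 ± 0.10, adjusted p = 0.0192). The type VI chains that were tested went the other way. Col6a3 stood at 468, 441 and 466 CPM in the descending and 49.0, 79.7 and 51.1 CPM in the ascending libraries, a log2 difference of -2.93 ± 0.23 (adjusted p = 0.00455), and Col6a1 (-0.89 ± 0.10) and Col6a2 (-1.39 ± 0.13) were higher in descending fibroblasts to a smaller extent. Col2a1, the chain of cartilage collagen, stood at 162, 160 and 121 CPM in the descending and 61.8, 59.999 and 58.4 CPM in the ascending libraries (-1.29 ± 0.14). The most abundant fibrillar chains Col1a1 and Col1a2 did not pass with 6 libraries (adjusted p = 0.5 and 0.951) and differed by -0.11 ± 0.02 and -0.18 ± 0.02 with 5.

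Small leucine-rich and hyaluronan-binding proteoglycans passed with 6 libraries in 1 direction only, 4 of 17 tested being higher in descending fibroblasts (1.47% of all genes). With 5 libraries 4 of 18 were higher in ascending and 7 in descending fibroblasts (16.4% and 15.2% of all genes). Aspn, asporin, stood at 123, 128 and 520 CPM in the descending and 4.93, 10.2 and 6.51 CPM in the ascending libraries, a log2 difference of -5.17 ± 0.78 with 6 (adjusted p = 0.0311) and -4.12 ± 0.15 with 5. Omd, osteomodulin, stood at 33.5, 37.0 and 137 CPM against 4.02, 4.79 and 5.39, and Vcan, versican, at 158, 147 and 325 CPM against 36.7, 49.5 and 42.3. In all 3 genes descending control 3 was the highest library by a wide margin, and the other 2 descending libraries still stood above every ascending one. Cd44, the hyaluronan receptor, was higher in descending fibroblasts as well (-1.14 ± 0.19, adjusted p = 0.0429). Dcn, decorin, was higher in ascending fibroblasts with 5 libraries (0.78 ± 0.10) but did not pass with 6 (adjusted p = 0.781), at 167, 233 and 189 CPM against 114 and 118, while descending control 3 read 268. Among proteases and inhibitors 2 of 28 were higher in ascending and 1 in descending fibroblasts with 6 libraries: Mmp16, a membrane-bound metalloprotease (1.14 ± 0.20), Timp1, the inhibitor of metalloproteases (0.67 ± 0.10), and Adamts1, which cleaves versican (-0.68 ± 0.11). With 5 libraries 8 and 14 passed, and Mmp3, stromelysin, stood at 40.7, 39.4 and 34.4 CPM against 5.53, 6.42 and 0 (adjusted p = 0.279 with 6 libraries).

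BMP signalling genes differed in both directions, and so did their ligands. Of 27 tested, 4 were higher in ascending and 3 in descending fibroblasts with 6 libraries (1.19% and 1.47% of all genes), and 8 and 8 with 5 (16.4% and 15.2%). Besides Gdf6, the ligand Bmp4 stood at 183, 188 and 185 CPM in the ascending and 45.3, 43.6 and 27.4 CPM in the descending libraries (2.27 ± 0.21, adjusted p = 0.00694). Bmp6 was also higher in ascending fibroblasts (0.78 ± 0.13), as was Bmper, an extracellular BMP binder (25.3, 24.8 and 24.4 CPM against 3.71, 4.53 and 5.41). Bmp2 went the other way, at 7.07, 6.81 and 8.39 CPM in the descending and 0.692, 1.40 and 0.729 CPM in the ascending libraries. The antagonist Grem1, gremlin 1, stood at 440, 513 and 734 CPM in the descending and 80.6, 117 and 105 CPM in the ascending libraries (-2.48 ± 0.27, adjusted p = 0.0108), and follistatin, Fst, at 261, 280 and 310 CPM against 81.7, 92.9 and 93.3 (-1.66 ± 0.13, adjusted p = 0.00483). Thus 3 ligands were higher in ascending and 1 ligand and 2 antagonists in descending fibroblasts among those that passed with 6 libraries, beside Bmper.

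Genes of TGFβ signalling differed in both directions with 5 libraries and in few members with 6. Of 24 tested, 2 passed with 6 libraries, beside 2.65% of all genes, both higher in ascending fibroblasts. Smurf2, a ubiquitin ligase of the pathway's feedback, stood at 255, 247 and 259 CPM against 160, 162 and 152 (0.69 ± 0.10, adjusted p = 0.024). With 5 libraries 10 were higher in ascending and 8 in descending fibroblasts, 18 of 24 beside 31.6% of all genes, with a median log2 difference of 0.03. The ligand Tgfb1 did not pass (-0.16 ± 0.10 with 5 libraries, adjusted p = 0.284), and with 5 libraries Tgfb3 was higher in descending (-0.32 ± 0.05) and Tgfb2 in ascending fibroblasts (0.57 ± 0.06). With 6 libraries Tgfb1, Tgfb2 and Tgfb3 did not pass (adjusted p = 0.645, 0.978 and 0.451), and descending control 3 read Tgfb2 at 150 CPM, above the 93.3, 95.01 and 97.4 CPM of the ascending libraries.

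More Wnt genes passed as higher in descending than in ascending fibroblasts. Of 35 tested with 6 libraries 1 was higher in ascending and 4 in descending fibroblasts, and of 38 tested with 5 libraries 9 and 18 (median -0.17 and -0.44). The shares of all genes were 1.19% and 1.47% with 6 libraries and 16.4% and 15.2% with 5. Dkk2, a secreted modulator of Wnt receptors, stood at 48.5, 50.1 and 112 CPM in the descending and 4.97, 5.44 and 5.83 CPM in the ascending libraries (-3.70 ± 0.41, adjusted p = 0.0119). Rspo2, which amplifies Wnt signals, stood at 179, 191 and 337 CPM against 44.8, 50.4 and 51.3, and the receptor Fzd4 at 115, 124 and 88.3 CPM against 51.8, 55.6 and 54.6. Apcdd1, an inhibitor at the receptor, was higher in ascending fibroblasts (35.5, 37.0 and 40.8 CPM against 11.5, 11.8 and 9.88). FGF and PDGF genes passed with 6 libraries as higher in descending fibroblasts in 4 of 18 and in ascending ones in 0, while 7 and 7 of 18 passed with 5. Fgf10, a mesenchymal ligand, stood at 51.6, 51.1 and 76.5 CPM in the descending and 13.4, 16.2 and 15.7 CPM in the ascending libraries, and Fgf2 at 249, 273 and 381 CPM against 129, 129 and 131. The receptor Pdgfra, a fibroblast marker, stood at 378, 377 and 355 CPM against 180, 188 and 183 (-1.01 ± 0.10, adjusted p = 0.00784).

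Of 38 genes known from axon guidance, 3 were higher in ascending and 0 in descending fibroblasts with 6 libraries, and of 20 integrins 2 and 0, beside 1.19% and 1.47% of all genes. Sema3f, a semaphorin, stood at 193, 192 and 180 CPM in the ascending and 27.8, 28.4 and 12.0 CPM in the descending libraries (3.06 ± 0.34, adjusted p = 0.0119). Ephb2, an ephrin receptor (1.72 ± 0.27), and its ligand Efnb2 (0.98 ± 0.10) were also higher in ascending fibroblasts. The integrin subunits Itga3 (23.7, 22.4 and 24.8 CPM against 2.17, 2.76 and 4.60) and Itga6 (75.6, 73.4 and 72.4 CPM against 34.7, 34.6 and 38.8), which pair with beta subunits to bind laminin, were both higher in ascending fibroblasts. With 5 libraries 15 guidance genes were higher in ascending and 10 in descending fibroblasts, and 8 and 6 integrins, beside 16.4% and 15.2% of all genes. The difference between directions was not tested.

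Of 18 contractile and smooth muscle genes tested with 6 libraries, 3 were higher in descending fibroblasts, 0 in ascending and 15 did not pass (median -0.44), beside 1.47% and 1.19% of all genes in these directions. With 5 libraries 12 of 20 were higher in descending and 3 in ascending fibroblasts, and 5 did not pass (median -0.41), beside 15.2% and 16.4% of all genes. Pericyte markers moved with them: 3 of 3 tested were higher in descending fibroblasts with 5 libraries (median -0.68) and 0 with 6. The 5 listed summed to 189 to 211 CPM in the ascending libraries, 322 and 317 CPM in descending control 1 and 2 and 134 CPM in descending control 3, and their part in these differences was not tested. Acta2, smooth muscle actin, stood at 2384, 2291 and 2236 CPM in the descending and 1535, 1422 and 1495 CPM in the ascending libraries (-0.63 ± 0.09 with 6 libraries, adjusted p = 0.0268). Tpm2, a tropomyosin, went the same way (-0.88 ± 0.14). Cnn1, calponin 1, stood at 35.8 and 32.6 CPM in descending control 1 and 2 but at 11.03 in descending control 3, within the ascending range of 10.7 to 11.8, and passed with 5 libraries only. Myh11, which defines smooth muscle cells, stood at 44.2, 44.2 and 82.2 CPM against 23.3, 25.5 and 23.1 and passed with 5 libraries (-0.86 ± 0.06) but not with 6 (adjusted p = 0.114). In bulk samples a different share of cells of a type and a different amount of RNA per cell cannot be told apart.

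Among 24 tested genes of adventitial progenitors and fibroblast subsets, 3 were higher in ascending and 4 in descending fibroblasts with 6 libraries (1.19% and 1.47% of all genes), and 7 and 14 with 5 (16.4% and 15.2%). The 3 were Cd34, Pcolce2 and Clec3b (1.07 ± 0.17). Igfbp6, an insulin-like growth factor binding protein, stood at 420, 363 and 223 CPM in the descending and 52.8, 63.5 and 55.6 CPM in the ascending libraries (-2.54 ± 0.25, adjusted p = 0.00857). Ebf2, a factor of mesenchymal and fat precursors, stood at 65.6, 66.6 and 95.4 CPM against 14.4, 15.4 and 15.1 (-2.34 ± 0.20), and Serpinf1 at 872, 893 and 858 CPM against 374, 391 and 388 (-1.18 ± 0.09). The fat cell genes Adipoq (10.8, 14.2 and 10.3 CPM against 0.303, 2.00 and 0.437) and Plin1 (8.97, 11.3 and 12.9 CPM against 0.519, 1.40 and 0.292) moved with them, and the part of fat cells in these values was not tested. Pi16, a marker of universal fibroblasts, was higher in descending fibroblasts with 5 libraries (-1.26 ± 0.11) but did not pass with 6 (adjusted p = 0.374) and stood at 11.1 CPM in descending control 3, within the ascending range.

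The remaining lists are given by their 6-library calls, beside 2.65% of all genes. Of 18 retinoic acid genes 2 were higher in ascending and 1 in descending fibroblasts: the synthetic enzyme Aldh1a2 (28.8, 28.9 and 27.6 CPM against 11.1, 10.4 and 8.32) and the retinoid-induced transglutaminase Tgm2 (65.8, 65.2 and 67.3 CPM against 15.8, 15.5 and 4.87, adjusted p = 0.0498), and Rarres1 (-1.11 ± 0.19). Of 20 targets of hypoxia-inducible factors 2 were higher in ascending fibroblasts, the collagen hydroxylase P4ha1 (0.73 ± 0.09) and the glycolytic regulator Pfkfb3 (1.14 ± 0.18), and with 5 libraries 11 and 4 passed in the 2 directions (median 0.31), Vegfa being higher in descending fibroblasts (-0.66 ± 0.05, with an adjusted p of 0.0707 with 6 libraries). Of 14 chemokine and IL6 family genes the shared receptor Il6st was higher in ascending (986, 1050 and 993 CPM against 539, 549 and 536) and Il1rl1, the IL33 receptor, in descending fibroblasts (7.27, 8.19 and 8.73 CPM against 0.432, 0.549 and 0.875). Of 14 IGF genes Igfbp3 was higher in ascending fibroblasts (0.75 ± 0.12), and 2 passed in the descending direction. Of 25 immediate early genes and Kruppel-like factors Ier3 was higher in ascending (1.23 ± 0.21) and the flow-responsive factor Klf2 in descending fibroblasts (-1.15 ± 0.18). None of 25 DNA replication and mitosis genes passed with 6 libraries. With 5, 8 were higher in ascending and 1 in descending fibroblasts, while Mki67 (-0.05 ± 0.07) and Top2a (-0.06 ± 0.06) did not pass.

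**Figure D4:**
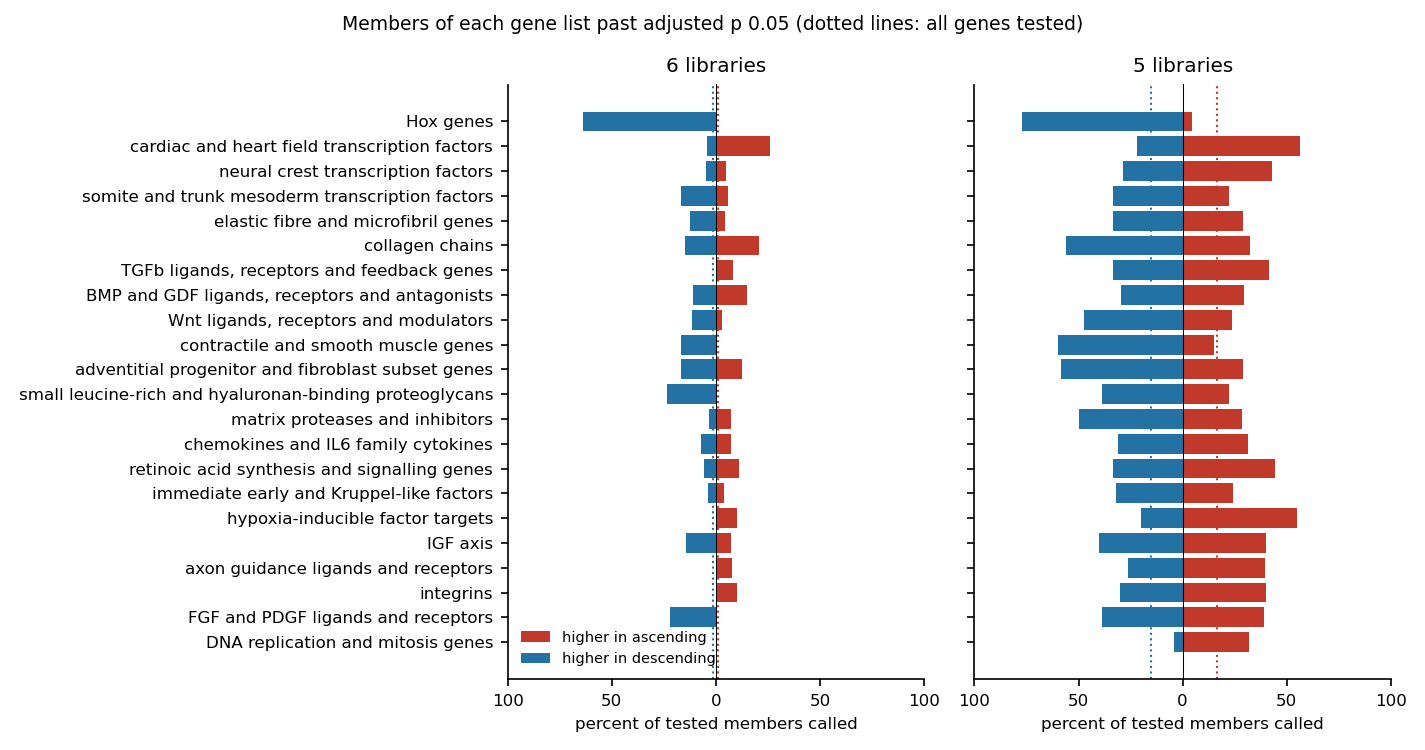
Percent of tested members of each gene list that passed an adjusted p of 0.05 (x axis, to the right when higher in ascending and to the left when higher in descending control fibroblasts) with 6 libraries (left) and 5 libraries (right); dotted lines give the percent over all genes tested. Among the lists drawn, which leave out the cell type markers, Hox genes reach furthest to the left in both fits, and cardiac factors furthest to the right.

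Few genes were confined to 1 site at the depth of these libraries. With all 6 libraries 9 genes stood at 1 CPM or more in every ascending library with at most 3 counts in each descending one, and 10 genes the reverse. The 9 were Gata4, AV026068, Tcf21, Isl1, Lhfpl3, Sprr1a, Cav3, Sox10 and Gm10482, and the 10 were Hoxc8, Hoxc6, Hoxc4, Hoxc5, Hoxc9, Hoxa9, Tnfsf11, Gm53, Gpr149 and Igsf1, several of them named only because they met this criterion. Of the 10, 6 were Hox genes, 5 of them from the Hoxc cluster. AV026068, a non-coding locus, stood at 21.3, 21.6 and 23.1 CPM against 0, 0 and 0.135, and Lhfpl3 at 3.63, 3.44 and 2.82 CPM with no descending count. Tnfsf11, the ligand RANKL, stood at 11.02, 8.88 and 4.19 CPM in the descending libraries against 0, 0.150 and 0.0486, and the orphan receptor Gpr149 at 2.96, 3.49 and 3.45 CPM against 0, 0.0997 and 0. Without descending control 3, the counts were 10 and 12. The added ascending gene was Gpm6a, a neuronal membrane glycoprotein, at 11.03, 13.4 and 9.38 CPM against 0.0395 and 0, which descending control 3 read at 3.79 CPM.

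The difference between sites was then set beside that in the 6 libraries with TGFβ, which share no library with the control comparison. There, 4963 of 13678 genes (36.3%) passed. Of the 4381 genes called in control fibroblasts with 5 libraries and tested with TGFβ, 2624 were called in the same direction, 59.9% of these and 53.6% of the 4893 calls with TGFβ that were also tested with 5 libraries, and 192 in the opposite direction. Of the 368 genes called with 6 libraries and tested with TGFβ, 343 were called in the same direction and 4 in the opposite one. All 30 genes with the smallest adjusted p in the control comparison, 15 per direction, were called with TGFβ in the same direction. The site difference itself differed between control and TGFβ (interaction) for 118 of 14637 genes with 12 libraries (0.806%) and for 2022 of 15013 with 11 (13.5%). Among the 30 genes with the smallest adjusted p it differed more often. It did so for 2 of the 15 higher in ascending fibroblasts with 12 libraries and 8 with 11. Of the 15 higher in descending fibroblasts it did so for 3 and 8.

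The site difference of Hoxa7 was -3.29 ± 0.09 without (5 libraries) and -3.25 ± 0.09 with TGFβ, and that of Hoxb9 -8.34 ± 0.18 and -8.69 ± 0.16. Neither interaction passed with 11 libraries (adjusted p = 0.897 and 0.827). Among other Hox genes the fold between sites was smaller with TGFβ for some and larger for others. For Hoxb5 it was 6.50 without (5 libraries) and 3.33 with TGFβ, and for Hoxa6 13.1 and 7.1. For Hoxb8 it was 240 and 389. Hand2 differed by 4.36 ± 0.14 and 5.18 ± 0.12, an interaction of -0.83 ± 0.24 that passed with 11 libraries (adjusted p = 0.0241) but not with 12 (adjusted p = 0.218). Eln showed the clearest interaction. Its site difference of 3.62 ± 0.06 in control fibroblasts (5 libraries, as for the next genes) stood beside 0.63 ± 0.04 with TGFβ, where it averaged 2630 CPM in ascending and 1704 CPM in descending fibroblasts, and the interaction was 3.07 ± 0.15 with 12 libraries (adjusted p = 1.42e-05). Tgm2, 2.10 ± 0.06 in control fibroblasts, did not pass with TGFβ (-0.10 ± 0.05, adjusted p = 0.125), with an interaction of 2.55 ± 0.44 (adjusted p = 0.0255). Dkk2, -3.17 ± 0.08 in control fibroblasts, was -0.27 ± 0.12 with TGFβ (interaction -3.42 ± 0.42, adjusted p = 0.0054). Of 25 replication and mitosis genes, 23 were higher in ascending fibroblasts with TGFβ, where 18.1% of all genes were, beside 8 of 25 without TGFβ (5 libraries). The interaction over the list was not tested, and that of Mki67 was -1.06 ± 0.12 with 11 libraries (adjusted p = 7.36e-07) and -1.66 ± 0.44 with 12 (adjusted p = 0.147).

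**Figure D5:**
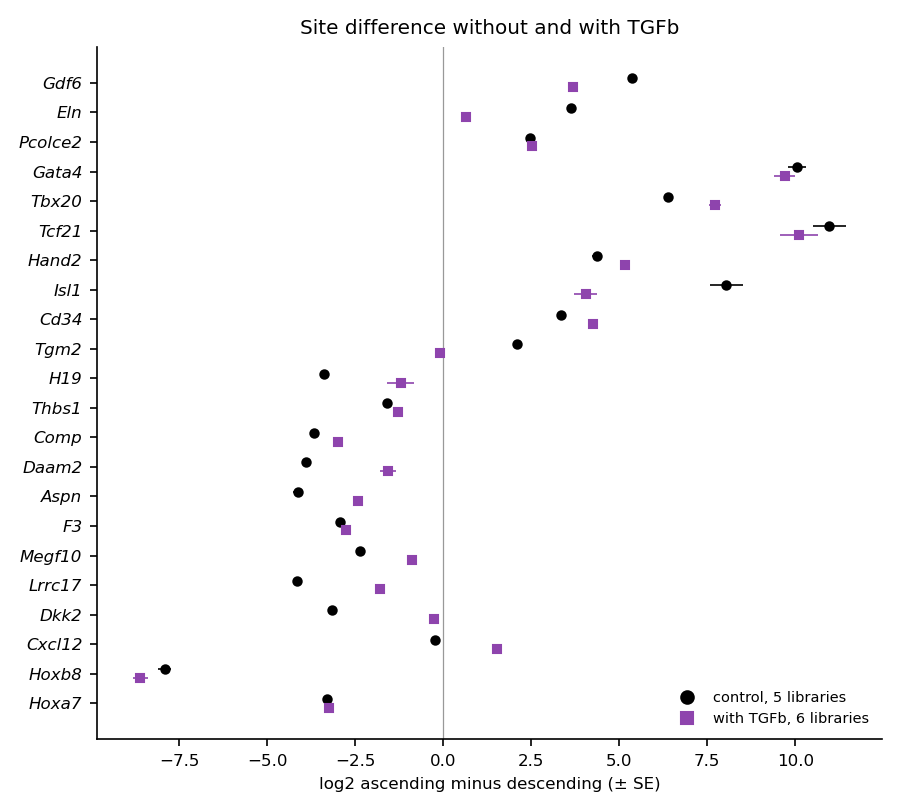
Log2 difference between ascending and descending fibroblasts (x axis, ± SE) of 22 genes in control cultures without descending control 3 (black circles) and in cultures with TGFβ (purple squares). Circles and squares lie close for Hoxa7, F3 and Pcolce2 and apart for Eln, Tgm2, Dkk2 and Isl1.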

How the data were processed

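The authors aligned the reads with STAR to mm10 and counted them per gene with featureCounts, and the deposited table holds raw counts for 54352 gene symbols in 12 libraries. Strand and multimapping settings are not given in the sources used here. Of the symbols, 98.9% matched GENCODE vM21, used for positions. The members and gene lists were chosen with earlier results of these data known. Counts were tested with edgeR 4.0.16 (R 4.3.3) by the quasi-likelihood F-test with TMM factors, filterByExpr defaults (minimum count 10, minimum total 15) and Benjamini-Hochberg adjustment over all genes tested. The standard error was the absolute log2 difference divided by the root of F. Differences are ascending minus descending, and the interaction is that difference in control minus that with TGFβ. Normalized CPM used TMM factors over 12 libraries. No pair of control replicates from the same site agreed within sampling noise, and pairs with TGFβ were not checked. Genes were named by adjusted p with 6 libraries (15 per direction), by fold with 5 libraries (10 per direction, at 10 CPM or more) and by list (up to 4 per direction), beside genes named for their role with their values known. A few genes that these rules name are not reported here. Where a group had 1 to 3 counts, the ratio has an exact 95% Poisson interval, which like the floor of 3 counts covers counting error only. Counts for the 6-library and 5-library comparisons were also simulated, with the same small spread in every library. The fits recovered 200 and 200 of 200 changed genes, all well expressed, and 2.91% and 5.66% of their calls were false. The simulation held no library like descending control 3, so it cannot speak to the power of the 6-library fit on the real counts. Alternatives were DESeq2 1.42.0, limma 3.58.1 (voom with sample weights), other factors, filters, thinning and left-out libraries.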

Additional observations from a re-analysis of the deposited data

Results flagged for a closer look

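For 18 of the genes named, the site difference in control fibroblasts differed from that with TGFβ (interaction, edgeR's quasi-likelihood test over 12 libraries, adjusted p under 0.05). Among signalling genes the difference of differences on the log2 scale was 1.79 for Gdf6, 1.21 for Bmper and -1.43 for Grem1. It was 1.08 for Tgfb3, -3.42 for Dkk2 and -2.46 for Daam2. Among matrix and matrix-modifying genes it was 3.07 for Eln, 0.53 for Col5a2, -0.67 for Col6a2, 2.55 for Tgm2 and 0.49 for P4ha1. Among transcription factors it was 4.24 for Isl1 and 0.81 for Klf4. For Megf10 it was -1.39, for Hsd17b7 -0.90, for Lrrc17 -2.09, for Cxcl12 -1.60 and for Aldh1a2 -1.16. The sign of the site difference itself turned between the conditions for Cxcl12 (-0.22 ± 0.03 in control with 5 libraries, 1.52 ± 0.04 with TGFβ) and for Klf4 (0.20 ± 0.04 and -0.55 ± 0.05). Over the alternatives to the 6-library fit the control difference ran from -0.225 to 0.018 for Cxcl12, so its sign there was not settled. That of Klf4 ran from 0.203 to 0.315. Aldh1a2 kept its direction with a larger difference under TGFβ (1.42 ± 0.08 and 2.67 ± 0.12).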

How the results depend on the processing

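With 6 libraries, 374 genes passed, against 1034 in DESeq2, 1545 in a fit over all 12 libraries and 4392 in limma voom with sample weights, which gave descending control 3 a weight of 0.0200. Leaving out single libraries gave 33 to 4631 calls: 33 without ascending control 1 or 3, 43 without ascending control 2, 77 and 108 without descending control 2 and 1, and 4631 without descending control 3. Leaving out ascending control 2 together with descending control 3, chosen after seeing the data, gave 4453. With the replicate number as a block 0 genes passed in edgeR, with 1235 genes at an unadjusted p under 0.05. The numbers share no stated animal, and the correlations of same-numbered deviations were 0.061, 0.030 and 0.065. With 5 libraries 4631 passed, 4664 with the block and 3217 to 4453 without a further library. Requiring more than 2-fold left 1202 there, 1051 of 4963 with TGFβ, and 67 and 341 of the interactions over 12 and 11 libraries. With TGFβ the block gave 5056 and leaving out single libraries 4340 to 4656. The 118 interactions over 12 libraries became 419 in DESeq2, 56 with no filter, 50 with the block, 1979 in voom and 25 to 2022 without single libraries. The 2022 interactions over 11 libraries became 2024 with the block and 1362 to 1975 without a further library. The cause was not tested. No named gene that had passed changed sign, but some that had not did. Of 166 named genes, 16 lost their call with 6 libraries under no filter, 122 with the block, 94, 89 and 94 without ascending control 1, 2 or 3, and 64 and 74 without descending control 1 or 2. A difference under about 3 counts per library was not detectable at this depth.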
